A study of Mus musculus with 4 samples.

Results

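Gene-desert peaks were the stretches of open chromatin in heart nuclei that lay far from any protein-coding gene start. They were defined as peaks whose summit, the base of strongest signal, was more than 100000 bp from every start of a transcript that GENCODE M21 types as protein coding, on the mm10 (GRCm38) mouse genome. Of 78862 peaks of GFP- nuclei on chromosomes 1 to 19 and X, 10764 met this rule (13.6%, 95% Wilson interval 13.4 to 13.9), and of 64960 peaks of GFP+ nuclei, 7442 did (11.5%, 11.2 to 11.7). Merging the overlapping peaks of both lists gave 12147 gene-desert regions.

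All nuclei came from whole hearts of C57BL/6 males, 8 to 12 weeks old, of the NuTRAP/Cdh5-Cre genotype. In these animals Cre is driven by Cdh5, the gene of the endothelial adhesion molecule VE-cadherin. Cre switches on the NuTRAP transgene, which by the study's description tags ribosomes with GFP. Flow cytometry separated GFP+ nuclei (HeartPos), taken as endothelial, from GFP- nuclei (HeartNeg), which hold every other cell type of the heart, and ATAC-Seq was performed on 2 samples of each with the Tn5 transposase, of which the sample records give 2.5 µL per 50,000 nuclei and the study's list of reagents another amount. The deposited peaks were called once per population from both of its samples, so no value here has a replicate error, no test between populations was possible, and the intervals given cover counting error only.

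A gene desert is a long stretch of genome with few or no protein-coding genes. Deserts beside developmental genes often contain enhancers, short elements that bind transcription factors and loop over long distances to act on a promoter, and such distal elements differ more between cell types than promoters do. ATAC-Seq finds them because Tn5 inserts adapters where nucleosomes are absent. Each peak was placed in one of 3 classes. A HeartPos only peak overlapped no HeartNeg peak by even 1 bp, a HeartNeg only peak overlapped no HeartPos peak, and the remainder were shared. An unshared peak is therefore one that was not called in the other list, which is not a measurement that the site was closed there.

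The following windows of 200 bases, centred on the summit and read from the + strand of GRCm38, show the kind of sequence found in each class. They are named after the genes whose coding starts flank them. The letters in capitals are matches, on either strand, to short words that resemble the binding sites of factor families: CAGGAAGT for ETS factors, CCATTGT for SOX factors, AACAGCTG for an E-box of the kind bound by TCF21, TGANTCA for AP-1, AGATAAG for GATA factors and ACATTCCA for TEAD, together with a MEF2 word (CTA and TAG with any 4 bases between) and longer words of NF1 and of the insulator protein CTCF. A match is a description of the letters and not evidence of binding.

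Of the HeartPos only class, the window of highest signal (Ptprm–Lrrc30), the highest ones with the ETS word (Ets1–Kirrel3) and the SOX word (Cacng3–Rbbp6), and the highest unshared windows of the Klhl1–Dach1 and Adgrl2–Adgrl4 gaps are shown, because those words and those gaps set this class apart below.
Ptprm–Lrrc30 (chr17:67514560-67514759): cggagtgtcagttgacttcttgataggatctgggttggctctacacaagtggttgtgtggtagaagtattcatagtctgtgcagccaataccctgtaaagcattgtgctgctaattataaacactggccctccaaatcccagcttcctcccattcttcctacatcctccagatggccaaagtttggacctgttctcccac
Ets1–Kirrel3 (chr9:32886316-32886515): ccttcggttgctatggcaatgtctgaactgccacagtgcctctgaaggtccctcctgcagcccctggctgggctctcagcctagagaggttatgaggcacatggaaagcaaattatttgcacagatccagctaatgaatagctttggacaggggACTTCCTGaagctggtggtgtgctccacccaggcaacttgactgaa
Cacng3–Rbbp6 (chr7:122821019-122821218): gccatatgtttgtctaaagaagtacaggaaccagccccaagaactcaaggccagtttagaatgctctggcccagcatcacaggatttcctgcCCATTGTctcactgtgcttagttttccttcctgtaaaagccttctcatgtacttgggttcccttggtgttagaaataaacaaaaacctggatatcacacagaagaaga
Klhl1–Dach1 (chr14:97559670-97559869): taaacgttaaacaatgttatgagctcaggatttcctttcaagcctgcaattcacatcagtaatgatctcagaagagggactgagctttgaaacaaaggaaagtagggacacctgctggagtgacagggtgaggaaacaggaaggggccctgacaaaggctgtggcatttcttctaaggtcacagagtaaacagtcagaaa
Adgrl2–Adgrl4 (chr3:151294083-151294282): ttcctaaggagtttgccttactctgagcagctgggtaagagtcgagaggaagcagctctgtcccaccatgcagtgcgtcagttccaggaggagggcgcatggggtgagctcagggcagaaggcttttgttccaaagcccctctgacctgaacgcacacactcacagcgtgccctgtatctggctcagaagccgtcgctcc

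Of the HeartNeg only class, the window of highest signal, which is also the highest with the AP-1 word (Clvs1–Asph), the highest with the E-box word (Dact1–Daam1) and the highest of the Ebf1–Clint1 gap are shown.
Clvs1–Asph (chr4:9441203-9441402): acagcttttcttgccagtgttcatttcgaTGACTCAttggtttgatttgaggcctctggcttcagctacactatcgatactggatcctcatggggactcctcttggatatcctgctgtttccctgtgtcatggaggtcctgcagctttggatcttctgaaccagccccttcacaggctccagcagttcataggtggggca
Dact1–Daam1 (chr12:71626960-71627159): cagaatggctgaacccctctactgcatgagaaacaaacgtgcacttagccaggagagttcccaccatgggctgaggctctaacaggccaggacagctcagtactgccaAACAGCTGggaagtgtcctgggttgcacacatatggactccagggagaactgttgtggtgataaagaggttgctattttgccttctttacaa
Ebf1–Clint1 (chr11:45264033-45264232): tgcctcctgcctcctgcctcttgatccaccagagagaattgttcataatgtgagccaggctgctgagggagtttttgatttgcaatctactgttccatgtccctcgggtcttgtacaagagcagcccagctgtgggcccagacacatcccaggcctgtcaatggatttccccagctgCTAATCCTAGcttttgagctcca

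Of the shared class, the highest windows with the MEF2 word (St8sia2–Slco3a1, which also holds an AP-1 word) and with the CTCF word (Slc38a6–Tmem30b, which also holds a TEAD word) are shown.
St8sia2–Slco3a1 (chr7:74381918-74382117): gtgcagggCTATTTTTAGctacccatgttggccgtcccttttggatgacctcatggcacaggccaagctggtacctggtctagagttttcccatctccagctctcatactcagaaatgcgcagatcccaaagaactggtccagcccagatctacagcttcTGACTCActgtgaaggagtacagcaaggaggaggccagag
Slc38a6–Tmem30b (chr12:73408624-73408823): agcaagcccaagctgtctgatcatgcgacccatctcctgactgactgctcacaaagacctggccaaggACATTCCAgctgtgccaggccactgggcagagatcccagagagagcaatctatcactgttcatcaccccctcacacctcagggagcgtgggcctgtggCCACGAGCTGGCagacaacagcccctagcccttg

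The Clvs1–Asph window lay in an intron of Clvs1 and the St8sia2–Slco3a1 window in an intron of Slco3a1. The Adgrl2–Adgrl4 window lay in an exon of a gene that GENCODE does not type as protein coding, and the Dact1–Daam1 and Slc38a6–Tmem30b windows in introns of such genes. No annotated gene covered the summits of the other 5 windows, and none of the 10 windows touched coding sequence.

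The label of the group was checked against the annotation. Of the 12147 regions, 6686 (55.04%, 54.2 to 55.9) had a summit in no annotated gene of any type. A further 3738 (30.8%, 29.96 to 31.6) had a summit in an intron of a protein-coding gene, far from its start, and 1390 (11.4%) in an intron of a gene of another type, such as a non-coding RNA gene. Coding sequence held 34 summits and untranslated regions 45. In all, 3845 regions (31.7%, 30.8 to 32.5) were inside 716 protein-coding genes, so that the name gene desert stands here for distance from coding starts and not for the absence of genes. The most regions lay inside Msi2, an RNA-binding protein gene of 379 kb, with 50, followed by Gm20388 with 44, Camta1 with 42, Rora with 41 and Wwox with 34. Gm20388 is annotated as a single gene of 4435 kb that spans many others, so its 44 regions also lie in those. When the starts of every GENCODE transcript were counted, non-coding ones included, only 1096 HeartPos and 1650 HeartNeg peaks remained more than 100000 bp away.

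The populations were checked with marker genes, counting a peak within 250 bp of a coding start. All 10 endothelial markers had one in HeartPos and 7 in HeartNeg, where Pecam1, Erg and Emcn had none. Of 10 fibroblast markers, 3 had one in HeartPos and 9 in HeartNeg, and of 8 mural cell markers 4 and 8. Cardiomyocyte markers had one for 9 of 10 genes in both lists, with Nppa the exception, and their median area rank was 89.9 in HeartPos and 94.8 in HeartNeg. Macrophage markers had one for 2 of 8 in each list glial markers for 1 of 5 in each, and lymphocyte markers for 0 of 6. The part of cardiomyocyte chromatin in the GFP+ list, and thus in the shared regions below, was not tested. Because whole nuclear populations were measured, more nuclei of a type and more open chromatin per nucleus cannot be told apart.

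Gene deserts were sparse in open chromatin. Sequence more than 100000 bp from every coding start made up 38.8% of the 2559 Mb of sequence on these chromosomes, or 994 Mb. It held 7.49 HeartPos and 10.8 HeartNeg peaks per Mb, against 36.7 and 43.5 per Mb in the remaining sequence. The median region was 178048 bp from the nearest coding start (176131 to 179821). The farthest, between the protocadherin genes Pcdh20 and Pcdh9 on chromosome 14, was 2281 kb away, was shared, and had middling signal, ranking at 31.0 in HeartPos and 25.2 in HeartNeg. Of the 5 most remote regions 4 were shared and the remaining one, between Olfm4 and Pcdh17, was HeartNeg only.

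The first question was whether open chromatin in gene deserts differed more between endothelial and other nuclei than open chromatin nearer to genes. Unshared peaks took a larger share in the deserts. Of the desert HeartNeg peaks 4808 were HeartNeg only (44.7%, 43.7 to 45.6), where 30.3% of all HeartNeg peaks were. Of the desert HeartPos peaks 1421 were HeartPos only (19.1%, 18.2 to 20.003), where 13.4% of all HeartPos peaks were. Among the 12147 regions, 5918 (48.7%) were shared, 4808 (39.6%) HeartNeg only and 1421 (11.7%) HeartPos only.

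Part of this contrast came with promoters, which were mostly shared. Within 1 kb of a coding start 9.28% of HeartNeg peaks and 3.42% of HeartPos peaks were unshared. Leaving those peaks out, 33.2% of the other HeartNeg peaks were HeartNeg only, which put the desert peaks 11.5 percentage points higher (10.5 to 12.5). The same comparison put desert HeartPos peaks 3.42 points higher (2.48 to 4.39) than the 15.7% of other HeartPos peaks. The HeartNeg only share went from 29.3% at 1 to 10 kb through 33.4% at 10 to 50 kb and 39.4% at 50 to 100 kb to 44.2% at 100 to 200 kb, then stayed between 44.0% and 45.6% farther out. The HeartPos only share changed less with distance, from 15.2% at 1 to 10 kb to 19.6% at 200000 to 500000 bp and 21.6% (18.3 to 25.3) farther out. Across the distance limit itself the unshared share did not step upwards. In the last 5 kb before it 41.8% of 615 HeartNeg peaks were unshared and in the first 5 kb after it 38.5% of 561, and for HeartPos the values were 20.1% of 448 and 14.7% of 409.

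**Figure D1:**
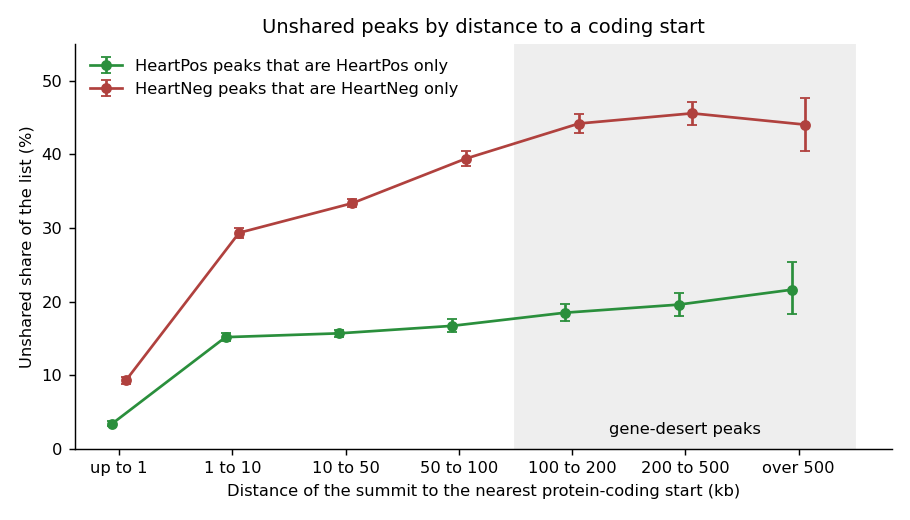
Share of each peak list that was not called in the other list (vertical axis, %) by distance of the summit to the nearest protein-coding start (horizontal axis, kb), with 95% Wilson intervals for counting error. Both lines start low at promoters, and in the shaded gene-desert bins the HeartNeg line lies between 44.0% and 45.6% and the HeartPos line between 18.5% and 21.6%.

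The list lengths bear on these shares. The HeartNeg list is longer, and when it was limited to its 64960 peaks of largest area the HeartNeg only share of desert peaks was 38.4% and the HeartPos only share 28.9%, with 3250 HeartNeg only and 2154 HeartPos only regions. Overlaps were found anew after this cut, so a HeartPos peak whose HeartNeg partner was cut counted as HeartPos only. The 2154 regions therefore include sites that were shared in the full lists. The same holds wherever lists were cut below. HeartNeg only regions were thus the more numerous class in both cases, by a smaller margin at equal list length. Asking for an overlap of 50% of both peaks in place of 1 bp gave 29.1% HeartPos only and 51.0% HeartNeg only among desert peaks.

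Signal was compared by area rank, the percentile of a peak's area within its own list, where 100 is the largest area. Over all classes desert peaks were weaker than the rest of their lists. Their median rank was 39.8 (38.8 to 40.7) in HeartPos and 40.5 (39.7 to 41.3) in HeartNeg. Other peaks over 1 kb from a coding start had medians of 42.8 and 44.0, so that most of the distance to the overall middle of 50 was common to peaks away from promoters. Desert peaks were also short, with a median length of 356 bp in HeartPos and 375 bp in HeartNeg against 479 and 491 bp for all other peaks. Ranks above 90 were reached by 1.28% of desert HeartPos peaks and 1.64% of desert HeartNeg peaks.

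The classes differed in rank. HeartPos only desert peaks were the weakest, with a median rank of 18.2 (17.3 to 19.5), HeartNeg only peaks had 29.3 (28.3 to 30.3), and shared peaks had 45.2 in HeartPos and 49.3 in HeartNeg. The order was the same among other peaks over 1 kb from a start, at 17.3, 24.7, 47.8 and 53.1, so that within the HeartNeg only class the desert peaks ranked higher than the others, and within the shared class lower. Of the 1421 HeartPos only peaks, 431 (30.3%) fell in the lowest 10 rank points and 0 in the highest 10. Of the 4808 HeartNeg only peaks, 977 (20.3%) fell in the lowest and 12 in the highest. The 189 desert regions with a rank above 90 in either list comprised 177 shared, 12 HeartNeg only and 0 HeartPos only regions.

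**Figure D2:**
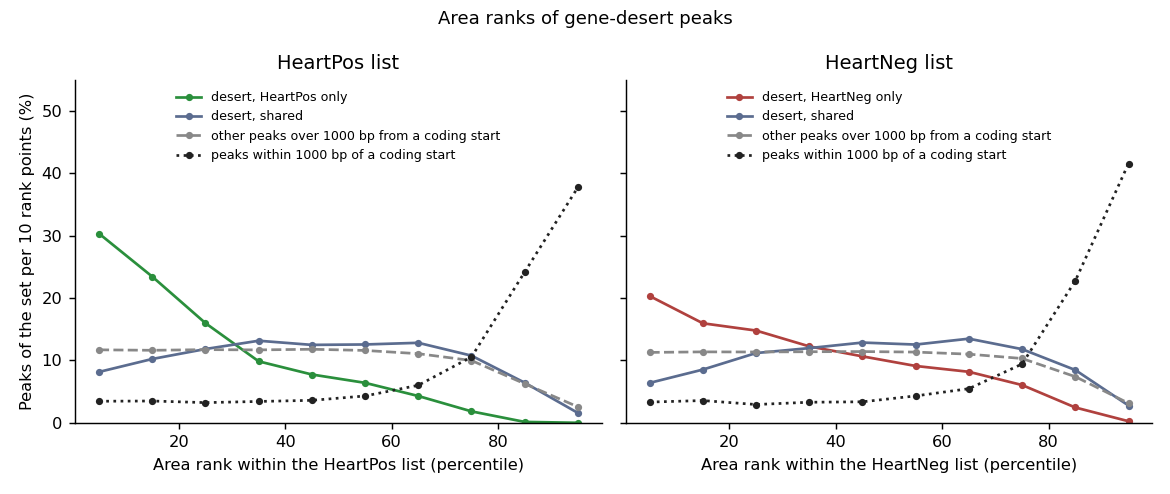
Distribution of area ranks in steps of 10 percentile points (horizontal axis) as the percentage of each set (vertical axis), for the HeartPos list on the left and the HeartNeg list on the right. Unshared desert peaks pile up at low ranks (30.3% of HeartPos only and 20.3% of HeartNeg only peaks in the lowest step), shared desert peaks are fewer in the lowest step (8.15% and 6.40%) than other distal peaks (11.7% and 11.3%), and promoter peaks pile up at high ranks.

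Because weak peaks are more often unshared, the shares were also compared within bands of 25 rank points against other peaks over 1 kb from a start. The HeartNeg only share of desert peaks was higher in all 4 bands, by 4.26, 11.5, 13.5 and 12.1 points from the weakest to the strongest band. In the strongest band it was 20.9% (18.8 to 23.2) of 1306 desert peaks against 8.84% of 8306 others. For HeartPos only the differences were 3.21, 2.31, 2.53 and 0.857 points, and in the strongest band 1.26% of 793 desert peaks were unshared against 0.404% of 5938 others. The larger unshared share of desert HeartNeg peaks was therefore not limited to weak peaks.

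Where both lists had a desert peak, the ranks were close. Over 6021 shared HeartPos peaks the median difference, HeartPos minus HeartNeg, was -2.37 points (-2.67 to -2.05), against -3.32 for shared peaks elsewhere over 1 kb from a start and -2.16 over all 56240 shared peaks. A difference of over 20 points towards HeartPos was found for 403 (6.69%) and towards HeartNeg for 883 (14.7%), near the 4.87% and 15.002% over all shared peaks. The region most tilted to HeartPos lay between Fat4, an atypical cadherin, and Intu, at rank 89.5 in HeartPos and 5.91 in HeartNeg. Regions between Nrcam and Stxbp6 (76.0 and 0.0938) and between Ctnnb1, the gene of β-catenin, and Ulk4 (75.4 and 0.690) came next. The region most tilted to HeartNeg lay between Zfat and Khdrbs3, at 3.71 in HeartPos and 86.2 in HeartNeg, followed by one between Mc2r and Tcf4 (3.86 and 85.7) and one between Serp2 and Lacc1 (4.84 and 85.6). These 6 regions had a peak in both lists and were counted as shared, although they sat near the top of one list and the bottom of the other.

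The strongest HeartPos only region (rank 83.9) lay 160 kb from the start of Ptprm, a receptor tyrosine phosphatase of cell contacts that is abundant in endothelium, and 118 kb from Lrrc30. It was 1 of 7 regions in a cluster. The next were between Arglu1 and Fam155a (80.2), between Igfbp3, which encodes a binding protein of insulin-like growth factors, and Tns3 (79.7), between the kinase gene Plk2 and Actbl2 (79.6), and between Ets1, an ETS transcription factor of endothelial and blood cells, and Kirrel3 (79.5). Of their flanking genes, Arglu1, Plk2 and Ets1 are on the study's endothelial list and Igfbp3 on its fibroblast list.

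The strongest HeartNeg only region (94.2) was inside Clvs1, 170 kb from its start and 202 kb from that of Asph, which encodes an aspartate hydroxylase and the calcium-handling protein junctin. The others were between Uaca and the corepressor gene Tle3 (92.8), between the transcription factor gene Zeb1 and Arhgap12 (92.6), between Tbx20, a cardiac T-box factor, and Gm10181 (92.6), and between Tut7 and Gas1, a hedgehog co-receptor (92.5). Every one of these ranked higher in its list than the strongest HeartPos only region did in its own.

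The strongest shared region, between Kif2a and Smim15, ranked at 99.9 in both lists. It overlaps the start of Zswim6, whose transcript there is not of the protein-coding type in GENCODE but is a curated mRNA in RefSeq, so it is a promoter of the kind that the rule was meant to leave out. Of all 12147 regions 10 lay within 1 kb of a curated RefSeq mRNA start, 9 of them shared and 1 HeartNeg only. The next shared regions, between Irf2bp2 and Tomm20 (99.6 in HeartPos, 99.7 in HeartNeg), between Klf14 and Mkln1 (99.5 and 99.6), between Zfat and Khdrbs3 (99.3 and 99.3) and between Akr1e1 and Klf6 (98.9 and 98.9), likewise had nearly the same rank in both lists. The last of these lay at the start of the non-coding gene Gm5444.

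Desert regions were grouped along the genome. Taking as a cluster 3 or more regions between the same coding starts with successive summits no more than 12.5 kb apart, 1131 clusters held 4997 regions (41.1%, 40.3 to 42.0). The median cluster had 4 regions over 13.6 kb. The largest was inside Msi2 on chromosome 11, with 50 regions over 218 kb, of which 3 were HeartPos only, 26 HeartNeg only and 21 shared. It was followed by clusters of 28 regions between Klf14 and Mkln1, 26 between Haao and Zfp36l2, 22 between Rad51b and Zfp36l1 and 21 between Sulf2, a heparan sulfate sulfatase, and Prex1. In all 5 the HeartNeg only regions outnumbered the HeartPos only regions, at 26 to 3, 11 to 0, 11 to 2, 9 to 2 and 13 to 0. HeartNeg only regions were also the more numerous over all desert regions, at 39.6% against 11.7% HeartPos only.

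Classes were mixed within clusters. Shared regions alone made up 116 clusters, HeartNeg only regions alone 123 and HeartPos only regions alone 8, whereas 226 clusters held both kinds of unshared region. Next neighbours no more than 12.5 kb apart were more often of the same class than the class was frequent among all neighbours. A neighbour of a HeartPos only region was HeartPos only in 23.2% of 1138 cases, against 10.9% over all neighbours. A neighbour of a HeartNeg only region was HeartNeg only in 55.8% of 4217 cases, against 40.5%.

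The regions lay in 1703 gaps, a gap being the stretch between neighbouring coding starts, and 278 gaps held at least as many regions as the remaining ones together. Of the 402 gaps with 10 or more regions, HeartPos only regions outnumbered HeartNeg only regions in 39, were fewer in 344 and were equal in 19. With the HeartNeg list limited to the length of the HeartPos list and overlaps found anew, these counts were 99, 218 and 21 of 338. HeartPos only regions were absent from 106 of the 402 gaps.

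The gap with the most HeartPos only regions, and with the highest HeartPos only share of those with 10 or more regions, was that between Klhl1 and Dach1 on chromosome 14, which is 1650 kb long. Dach1 is a transcription cofactor known for its role in coronary artery growth. Of its 16 regions 13 were HeartPos only, 1 was HeartNeg only and 2 were shared, and 10 lay inside Dach1. The 13 HeartPos only regions ranked from 8.70 to 69.1 with a median of 19.8, and all lay 1041 to 1531 kb from Klhl1, on the Dach1 side. The start of Dach1 itself was open in both lists, at ranks 92.3 and 93.7, and that of Klhl1 in neither. The contrast between the lists was thus seen in the distal regions of this gap and not in whether the Dach1 promoter had a peak. With both lists cut to ranks above 50, 5 regions were left, 4 counted as HeartPos only and 1 as HeartNeg only. Of the 4, 1 was shared in the full lists, at 69.6 in HeartPos and 23.4 in HeartNeg, where its peak was cut.

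The gap between Adgrl2 and Adgrl4, 2447 kb on chromosome 3, had 11 HeartPos only, 2 HeartNeg only and 23 shared regions. Adgrl4 is an adhesion receptor of endothelial cells and Adgrl2, a latrophilin, is also found in other tissues. The HeartPos only regions formed one set 201 to 457 kb from Adgrl2 and another set of 5 on the Adgrl4 side, 2163 to 2342 kb from Adgrl2. The 5 near Adgrl4 ranked at 37.0, 22.9, 71.4, 50.5 and 24.8, and the sixth region there was shared at 76.5 in HeartPos and 30.9 in HeartNeg. No HeartNeg only region lay on the Adgrl4 side. The coding start of Adgrl4 had a peak in HeartPos, at rank 75.2, and none in HeartNeg. The region at rank 71.4 lay at the start of the non-coding gene 4930555A03Rik.

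A further 3 gaps completed the 5 with the most HeartPos only regions. That between Plk2 and Actbl2 had 10 HeartPos only, 6 HeartNeg only and 16 shared regions. That between Cdh13, which encodes T-cadherin, and Hsbp1 had 10, 2 and 20, all 32 inside Cdh13, and the Cdh13 start ranked at 46.2 in HeartPos and 48.0 in HeartNeg. That between Plpp3, a lipid phosphate phosphatase, and Gm12728 had 9, 15 and 13. By share, the gap between Irx3 and Irx5, a pair of Iroquois homeobox factors of cardiac conduction, followed Klhl1–Dach1 with 6 of 11 regions HeartPos only. Next came a gap between alternative starts of Gse1 with 5 of 11, that between Nrsn1 and Hdgfl1 with 7 of 16, and that between the nuclear receptor gene Nr5a2 and Ptprc with 8 of 20. Ptprc encodes the leukocyte antigen CD45 and had no peak at its start in either list, whereas Nr5a2 had one at 62.2 in HeartPos and 49.8 in HeartNeg.

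The gaps with the most HeartNeg only regions were larger sets, and their shares stand here beside 39.6% HeartNeg only and 11.7% HeartPos only over all gaps. Between Rad51b, a homologous recombination gene, and Zfp36l1, which encodes a protein of mRNA decay, lay 77 regions, the most of any gap. Of these 7 were HeartPos only (9.09%), 35 HeartNeg only (45.5%) and 35 shared, so this gap was near the values over all gaps. Between the starts of Ebf1, a transcription factor of B cells, fat and mural cells, and Clint1 lay 33 regions. Of these 1 was HeartPos only, 28 were HeartNeg only (84.8%) and 4 shared. The 28 HeartNeg only regions ranked from 0.451 to 81.4 with a median of 40.2, and 15 of the 33 regions were inside Ebf1. The Ebf1 start had a peak at 77.3 in HeartPos and at 85.7 in HeartNeg. Between alternative starts of the orphan nuclear receptor gene Rora, 26 of 41 regions (63.4%) were HeartNeg only and 0 HeartPos only. The HeartNeg only regions were 26 of 50 (52%) between Ccdc182 and Msi2. They were 26 of 53 (49.1%) between the transcription factor gene Zeb2 and Acvr2a, an activin receptor.

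Some smaller gaps were almost wholly HeartNeg only. All 10 regions were HeartNeg only between Serpine2, an extracellular protease inhibitor, and Fam124b, and likewise all 10 between Sphkap and Pid1. Between Unc93a2 and Fndc1, which encodes a fibronectin type III domain protein of the matrix, 17 of 18 were, between Ebf2, a relative of Ebf1, and Cdca2 13 of 14, and between Rtl1 and Dio3, imprinted genes, 9 of 10. The Ebf2 gap rested on weak peaks, as 8 regions, 7 of them HeartNeg only, were left at equal list length. With both lists cut to ranks above 50, 1 was left. The gap of Fndc1 had 15 regions, 14 of them HeartNeg only, and 9, all HeartNeg only in the cut lists. The starts of Serpine2, Pid1, Fndc1 and Ebf2 had a peak in both lists but ranked higher in HeartNeg. The ranks were 63.6 against 31.4 for Serpine2, 71.8 against 17.9 for Pid1, 61.3 against 10.3 for Fndc1 and 89.8 against 75.1 for Ebf2. That of Cdca2 ranked at 99.3 in both lists. The opposite flank need not follow, as Fam124b had a start peak in HeartPos, at 75.4, and none in HeartNeg.

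**Figure D3:**
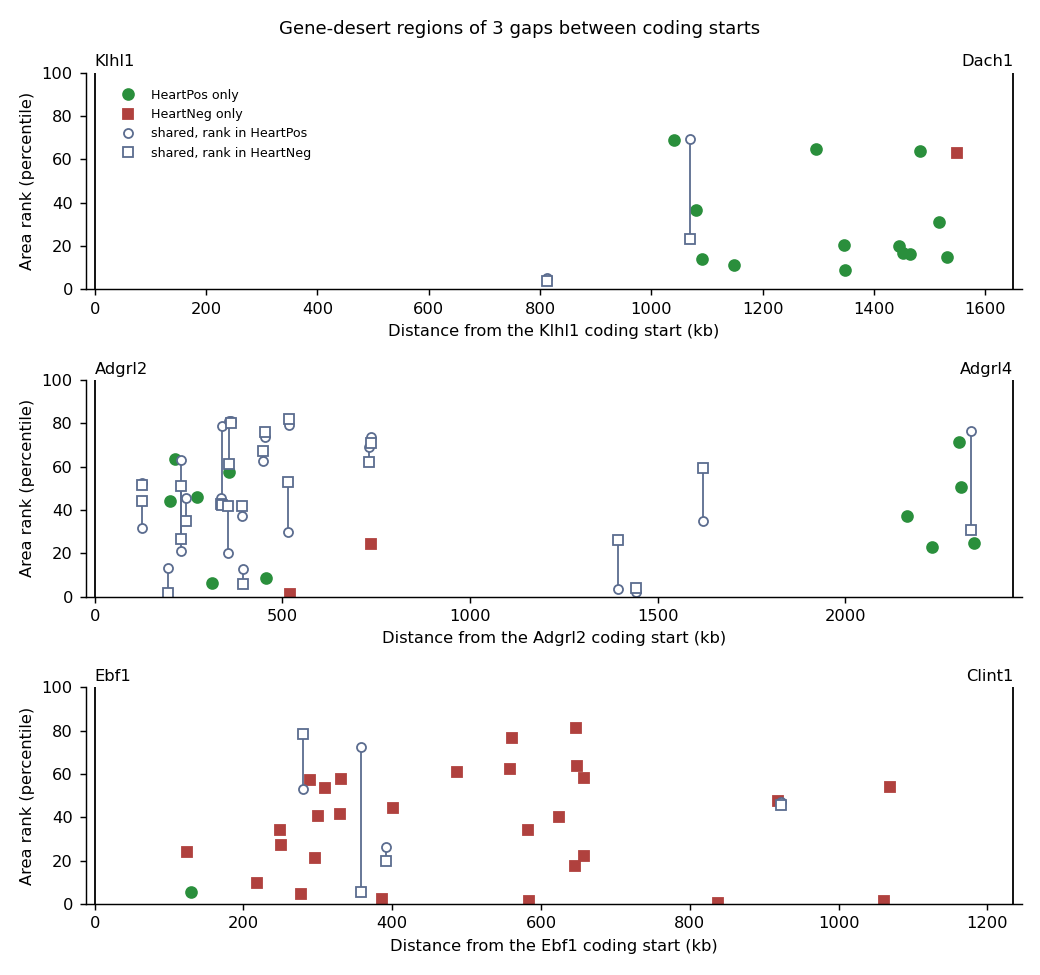
Area rank (vertical axis, percentile within the list) of each gene-desert region by its distance from the left coding start (horizontal axis, kb) in the gaps Klhl1–Dach1, Adgrl2–Adgrl4 and Ebf1–Clint1, with black lines at both coding starts. Filled circles are HeartPos only and filled squares HeartNeg only regions, and joined open symbols give both ranks of a shared region: 13 of 16 regions are HeartPos only in the first gap, 11 of 36 in the second and 1 of 33 in the third, where 28 are HeartNeg only.

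Flanking genes were then grouped by lists. The study's own lists of endothelial, cardiomyocyte, fibroblast and nonspecific genes came from published single-cell RNA-Seq, not from these samples, and 3 lists of regulators were added by hand. Over all gaps 11.7% of regions were HeartPos only and 39.6% HeartNeg only, and the lists are described beside these values without a test. The lists are not disjoint. Some genes are on several lists and a gap has a flank on each side, so the same region can count for several lists.

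The gaps flanked by a gene of the study's endothelial list tilted to HeartPos. Of 176 such genes matched, 43 flanked 52 gaps with 488 regions, of which 105 (21.5%, 18.1 to 25.4) were HeartPos only and 147 (30.1%, 26.2 to 34.3) HeartNeg only. The phospholipase gene Plcb4 had 8 HeartPos only, 2 HeartNeg only and 15 shared regions, and the gaps of Ctnnb1 had 8, 0 and 9. The members were not alike, since the gaps of Nrp1, a co-receptor of VEGF, had 5, 22 and 10, and the gap of Cdh5 had 2, 8 and 6. The hand-written endothelial regulators stood nearer to the overall values, with 16.1% (13.0 to 19.7) HeartPos only and 42.3% HeartNeg only of 466 regions. Among them the gap of Klf4, a flow-responsive factor, had 9 HeartPos only, 18 HeartNeg only and 18 shared regions, that of Foxo1 had 8, 10 and 14, and that of Hes1, a Notch target, had 1, 15 and 14.

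The fibroblast lists tilted the other way. Of 655 regions flanked by a gene of the study's fibroblast list, 51 (7.79%, 5.97 to 10.1) were HeartPos only and 360 (54.96%, 51.1 to 58.7) HeartNeg only. The gaps of Gas1 had 1 HeartPos only, 27 HeartNeg only and 10 shared regions, those of the transcription factor gene Osr1 had 1, 20 and 11, and that of the RNA-binding protein gene Bicc1 had 0, 18 and 4. In the gap of the proteoglycan gene Sdc2, with 2, 4 and 8, and in that of Oat, with 3, 0 and 2, HeartNeg only regions did not prevail. Of 700 regions flanked by the hand-written fibroblast and mural regulators, 8.57% were HeartPos only and 53.4% HeartNeg only. The gap of the nuclear factor gene Nfib had 5, 25 and 26, and the Ebf1 gap was described above. The gaps of Runx1, with 1, 3 and 13, and of the growth factor gene Hgf, with 1, 2 and 10, were mostly shared.

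The cardiomyocyte lists leaned to shared regions. Of 403 regions flanked by the cardiomyocyte regulators, 226 (56.1%, 51.2 to 60.8) were shared, against 48.7% over all gaps, and 33.0% were HeartNeg only. The gap of Tbx3, a T-box factor of the conduction system, had 2 HeartPos only, 12 HeartNeg only and 19 shared regions. That of Gja1, which encodes connexin 43 and is also on the study's endothelial list, had 7, 12 and 13. The gap of Mef2c had 5, 7 and 11. The metabolic coactivator gene Ppargc1a had 2, 4 and 20, and the gap of Pln, the regulator of the calcium pump of the sarcoplasmic reticulum, had 6 shared regions and no other. Other members did not lean this way, since the gaps of the homeobox gene Meis1 had 0, 19 and 11, and those of Tbx18, which is also on the fibroblast and mural list, had 0, 10 and 3. The study's cardiomyocyte list flanked only 99 desert regions, of which 54.5% (44.8 to 64.0) were shared. For the study's nonspecific list, 13.4% of 814 regions were HeartPos only, 36.6% HeartNeg only and 407 shared. Cardiomyocyte markers ranked high in both lists, as given above, and the part of this in the shared regions was not tested.

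**Figure D4:**
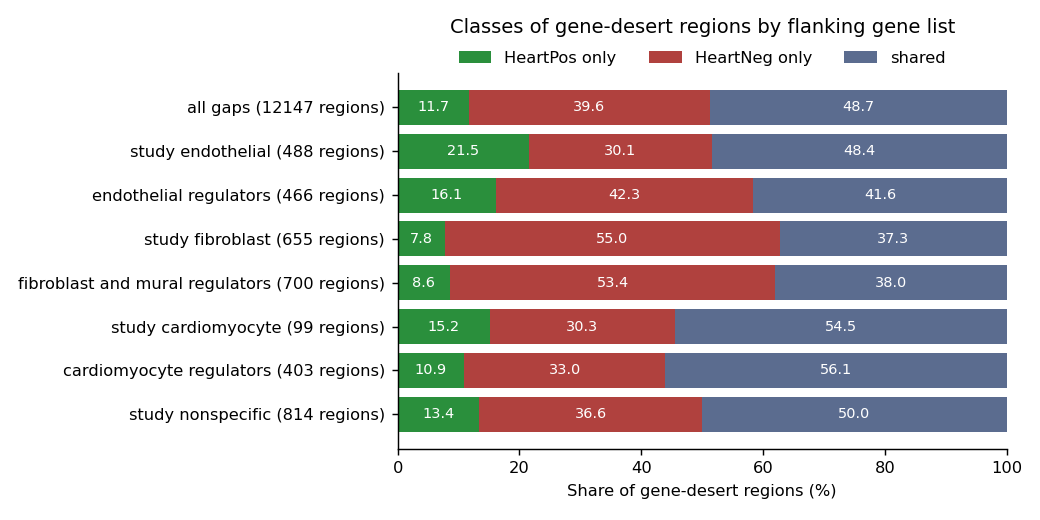
Share of gene-desert regions (horizontal axis, %) that are HeartPos only, HeartNeg only or shared, for all gaps and for gaps flanked by at least 1 gene of each list, with the number of regions beside the list name. The same region can count for several lists. The HeartPos only part is widest for the study's endothelial list (21.5%) and narrowest for its fibroblast list (7.79%), whose HeartNeg only part is 54.96%.

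The order of the endothelial and fibroblast lists was kept at equal list length. There the HeartPos only share was 31.1% for the study's endothelial list, 13.8% for its fibroblast list and 20.3% over all gaps. It was also kept with both peak lists cut to ranks above 50, where the shares were 27.8%, 6.59% and 12.5%. In both settings overlaps were found anew after the cut, so regions shared in the full lists could count as unshared. Leaving out regions inside protein-coding genes gave 20.997%, 7.02% and 11.8%. The regulator lists were less steady. In the peak lists cut to ranks above 50, the HeartNeg only share of the cardiomyocyte regulators was 41.2%. That of the endothelial regulators was 35.5%, against 40.9% over all gaps. The first thus no longer stood below the value over all gaps, and the second changed from above it to below it. The part of regions shared in the full lists in these changes was not tested.

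The coding starts on both sides of desert regions mostly had a peak in both lists. They were counted once for each region and side, so that the starts of gaps with many regions entered many times. Of 2840 such flanks of HeartPos only regions 72.6% had a peak in both lists, and of 9615 flanks of HeartNeg only regions 75.8%, where 57.8% of all 21681 protein-coding genes did. A peak in the HeartPos list alone was found at 1.62% of the flanks of HeartPos only regions and 0.676% of those of HeartNeg only regions, and at 0.913% of all genes. A peak in the HeartNeg list alone was found at 3.27% and 5.57%, and at 2.97% of all genes. The class of a desert region thus went with the same class at a flanking start in few cases, and most flanking starts did not distinguish the populations by the presence of a peak.

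The sequence around the summits differed between the classes in ways that the rule did not use. Shared windows in this comparison were centred on the summits of the 6021 shared HeartPos peaks, and the HeartNeg summits of shared sites were not used. The ETS word was found in 5.70% (4.61 to 7.03) of HeartPos only windows of 200 bp, 3.29% (2.82 to 3.83) of HeartNeg only windows and 2.89% (2.50 to 3.34) of shared windows, and in 1.41% of the windows flanking the HeartPos only ones. The SOX word was found in 6.54% (5.37 to 7.95), 2.27% (1.88 to 2.73) and 3.45% (3.02 to 3.95), and in 3.62% of the windows flanking the HeartPos only ones. ETS factors such as ERG and SoxF factors are known regulators of endothelial genes.

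HeartNeg only windows held the E-box word most often, in 6.49% (5.83 to 7.22), against 2.53% of HeartPos only and 2.29% of shared windows. TCF21, which binds such a word, is a factor of cardiac fibroblasts. The Tcf21 start had a peak in HeartNeg, at rank 83.8, and none in HeartPos. The part of TCF21 in the share of this word was not tested. The AP-1 word was also most frequent there, at 16.5% (15.5 to 17.6), against 10.7% (9.19 to 12.4) and 9.78%. In the flanking windows of all 3 classes it was found in 6.11 to 6.65%.

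Shared windows held the MEF2 word in 7.99% (7.33 to 8.70), HeartPos only windows in 5.14% (4.11 to 6.41) and HeartNeg only windows in 3.72%. In the windows flanking the HeartPos only ones the MEF2 word was found in 4.12% and in those flanking the shared ones in 3.20%. Shared windows held the CTCF word in 7.39% (6.76 to 8.08), against 4.93% and 3.22%. The MEF2 family controls muscle genes, and CTCF binds at insulators and loop anchors in most cell types. GATA, TEAD and NF1 words differed less, with the intervals of all 3 classes overlapping for GATA (3.85 to 4.36%) and TEAD (1.62 to 2.25%). The NF1 word was rare, in 0.541 to 0.913% of windows.

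**Figure D5:**
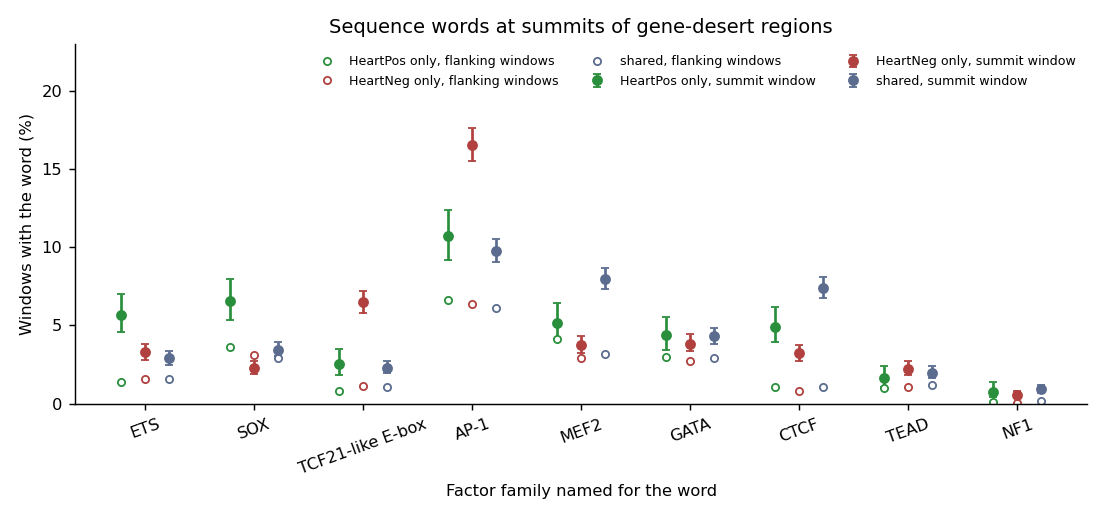
Percentage of 200 bp windows (vertical axis) that hold each word, by the factor family it is named for (horizontal axis), with 95% Wilson intervals for the windows at summits and open circles for the flanking windows. HeartPos only regions lead for the ETS and SOX words (5.70% and 6.54%) and HeartNeg only regions for the E-box and AP-1 words (6.49% and 16.5%). Shared windows, centred on HeartPos summits, lead for the MEF2 and CTCF words (7.99% and 7.39%).

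Over all HeartPos peaks, promoters included, the ETS word was found in 3.18% of windows, the SOX word in 2.82%, the E-box word in 1.87%, the AP-1 word in 7.71%, the MEF2 word in 5.26% and the CTCF word in 9.24%. Over all HeartNeg peaks the values were 2.89%, 2.19%, 3.02%, 9.99%, 4.83% and 8.25%. The same order held outside the deserts for most words, and with similar values. Among other peaks over 1 kb from a start the ETS word was in 6.04% of HeartPos only and 3.29% of HeartNeg only windows, the SOX word in 5.88% and 2.01% and the E-box word in 2.07% and 5.50%. The CTCF word stood apart, as it was found less often in desert peaks. It was in 7.39% of shared desert windows and in 12.3% of other shared windows. Desert windows were also lower in GC, with a median of 47.5% in HeartPos only, 48.5% in HeartNeg only and 49.5% in shared peaks, against 50.5% and 52.0% for HeartPos only and shared peaks elsewhere over 1 kb from a start. The part of base composition in the shares of the words was not tested.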

How the data were processed

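ATAC-Seq was performed on sorted GFP+ and GFP- heart nuclei, with 2 samples each. Per the labels and methods, reads were trimmed, aligned to mm10 with Bowtie2 (2.3.5.1 in the submitters' processing notes), filtered with SAMtools (1.19), stripped of duplicates with Picard and downsampled to equal read numbers before Genrich called peaks in its ATAC-Seq mode outside blacklisted sequence, from both replicates together. The authors deposited, per peak, a score limited at 1000, a signal (the area, at least 200.01 in HeartNeg and 200.013 in HeartPos), a −log10 p of the summit and the summit's offset. The ATAC-Seq mode counts the interval around each Tn5 cut, so areas also depend on that interval, and equal read numbers do not make the areas of separately called lists comparable, so each area was turned into a percentile rank within its list. No read counts per sample were used, the depth behind a single peak is unknown here, and 50 HeartNeg and 48 HeartPos peaks on other sequences than chromosomes 1 to 19 and X were left out.

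Distances were taken to 54086 distinct starts of 58504 protein-coding transcripts of GENCODE M21 (GRCm38), and sequence was read from RefSeq's GRCm38. Shares have 95% Wilson intervals, differences of shares Newcombe intervals and medians exact binomial intervals. Python 3.11.15, numpy 2.4.6, pandas 2.3.3, scipy 1.17.1, pysam 0.24.0 and matplotlib 3.10.9 were used, and overlap and distance code was tested on simulated data. The text names, per class, the 5 regions of highest rank, the 5 gaps with the most unshared regions and, of gaps with 10 or more regions, the 5 of highest unshared share, the 5 largest clusters, the 5 genes holding the most regions, the 3 regulators per list with the most regions, the 5 most remote regions, the 3 largest rank differences each way and the 3 highest non-coding starts. One item named by this rule is not reported here. Other flanking genes named for a list, and the sequences chosen for their words, were chosen after their values were seen. The members, lists and words were chosen with earlier results of these data known. The alternatives tried are given after the results.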

Additional observations from a re-analysis of the deposited data

How the results depend on the processing

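No paired analysis was possible because each list was called from both replicates together, and for the same reason no replicate could be left out. Of 105 recalculations over 10 results, 60 moved beyond the counting interval of the reported value and 45 did not, but 16 of the 45 were equal to it because the alternative does not enter that result. The 2 signed differences, with 24 recalculations, stayed positive in all of them. The desert share of HeartPos peaks (11.5%) and of HeartNeg peaks (13.6%) was 22.4% and 25.9% at a distance of 50000 bp, 4.77% and 5.71% at 200000 bp, 16.3% and 18.7% with the 5′ ends of gene records alone, 1.69% and 2.09% with the starts of all GENCODE transcripts, 8.74% and 10.6% for the peaks of each list with an area rank above 50, and 7.72% and 9.31% for summits outside protein-coding genes, and 13.0% for HeartNeg with the longer list limited to the length of the shorter.

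The HeartPos only share of desert peaks (19.1%) was 17.9% at 50000 bp, 29.1% with an overlap of 50% of both peaks, 20.9% for ranks above 50 and 28.9% at equal list length. For the last 2 settings, here and in the differences below, overlaps were found anew after the cut. A peak whose partner was cut thus counted as unshared. With the classes of the full lists, 8.31% of desert HeartPos peaks at ranks 50 to 75 and 1.26% at ranks 75 to 100 were HeartPos only. For HeartNeg only the values were 34.1% and 20.9%. The HeartNeg only share (44.7%) was 42.2% at 50000 bp, 42.2% with gene records, 47.0% with all transcripts, 51.0% with the 50% overlap, 46.7% for ranks above 50, 38.4% at equal list length and 45.7% outside genes. The difference from other peaks in the HeartPos only share (6.40 points) was 3.13 with the 50% overlap, 10.2 for ranks above 50 and 9.16 at equal list length. That in the HeartNeg only share (16.6 points) was 14.6 with gene records, 13.5 with the 50% overlap and 20.5 for ranks above 50. A further 2 alternatives were chosen after seeing the data. Against other peaks over 1000 bp from a start the differences were 3.42 and 11.5 points, and as a mean within bands of 25 rank points 2.23 and 10.3.

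The median rank of desert HeartPos peaks (39.8) and HeartNeg peaks (40.5) was 41.1 and 41.9 at 50000 bp, 38.1 and 39.1 at 200000 bp, and 37.8 and 36.9 with all transcripts. It was 33.5 and 35.0 for the peaks with ranks above 50, ranked anew within the cut lists, and 40.8 and 41.8 outside genes. For HeartPos it was 41.6 when ranked by the summit p, and for HeartNeg 38.7 at equal list length. The share of regions in clusters (41.1%) was 47.3% at 50000 bp, 30.3% at 200000 bp, 47.0% with gene records, 31.0% with all transcripts, 21.2% for ranks above 50, 36.8% at equal list length, 37.9% outside genes, and 19.2% or 59.2% with a cluster distance of 5000 or 25000 bp. The share inside protein-coding genes (31.7%) was 39.6% at 50000 bp, 20.1% at 200000 bp, 47.1% with gene records, 40.5% with all transcripts and 29.4% for ranks above 50. Leaving out chromosome X moved no result beyond its interval. Whether a peak missing from a list fell just under the calling limit could not be seen, since weaker signal was not analysed here.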

Other observations

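A few desert regions lay at starts of genes that GENCODE does not type as protein coding, within 250 bp of the summit. They made up 20 of 1421 HeartPos only regions (1.41%, 0.913 to 2.16), 54 of 4808 HeartNeg only regions (1.12%, 0.862 to 1.46) and 112 of 5918 shared regions (1.89%, 1.58 to 2.27). The HeartPos only interval overlapped both others, and the HeartNeg only and shared intervals did not overlap. The highest-ranked HeartPos only ones were AC163347.1 between Zfp608 and Gramd3 (74.2), 4930555A03Rik beside Adgrl4 (71.4) and Gm11682 between Map2k6 and Kcnj16 (63.6). The highest HeartNeg only ones were Gm43101 between the receptor tyrosine kinase genes Kit and Kdr (74.1), Gm39473 between Gm11042 and Kcnh5 (72.8) and Gm6249 between Mki67 and Mgmt (68.5). The Gm43101 region lay 160 kb from Kit and 244 kb from Kdr. Kdr, the VEGF receptor, itself had a start peak ranked at 90.04 in HeartPos and 74.4 in HeartNeg. An endothelial gene thus flanked this HeartNeg only region on its farther side. The highest shared one was the start of Zswim6 described above, at 99.9 in both lists. It was followed by Gm26901 between Pcmtd1 and Sntg1 (99.1 in HeartPos and 98.8 in HeartNeg) and Gm5444 between Akr1e1 and Klf6 (98.9 in both).

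The classes were not spread evenly over the chromosomes. The HeartPos only share of desert regions was highest on chromosome 14, at 15.95% of 608 regions, 13 of them in the Klhl1–Dach1 gap, and lowest on chromosome 19, at 8.13% of 160. The HeartNeg only share ran from 33.3% of 654 regions on chromosome 6 to 47.4% of 515 on chromosome 11, where the gaps of Ebf1 and Msi2 lie. Chromosome X, with 194 regions, had 8.25% HeartPos only and 40.7% HeartNeg only. Regions within a chromosome share gaps and clusters, so these shares are given as values with no test.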
